A study of Caenorhabditis elegans with 36 samples.

Results

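Chromosome V of *C. elegans* carries 4954 protein-coding genes among the 31106 features counted in these libraries, and 2093 of them have no gene name of their own and are known by the name of the sequenced clone and a number after a dot. Small RNAs on these 2093 clone-named genes were compared between the 2 outer parts of the chromosome and its middle. A gene was placed in the arms when its lowest coordinate lay below 6 Mb or above 16 Mb of chromosome V in the WBcel235 assembly, and in the centre otherwise, so that 1013 genes fell in the arms (526 in the left arm and 487 in the right arm) and 1080 in the centre. No measured value entered this choice.

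The small RNAs came from whole 1-day-old adults grown for 68 h at 20 °C, with about 100000 animals per replicate. Input small RNA and small RNA co-purified with HRDE-1 (IP) were sequenced for 6 genotypes with 3 replicates each, which gave 36 libraries and 12 conditions. Every strain, the one called wild-type included, carried *hrde-1(tor125[GFP::3xFLAG::hrde-1])* on chromosome III, and HRDE-1 was precipitated through the FLAG tag. The mutants were *hrde-2*, with the allele *hrde-2/enri-3(qe20)* on chromosome V; *simr-1*, with *simr-1(cmp36)* on chromosome I; *mut-2*, with *mut-2(ne298)* on chromosome I; *mut-2; hrde-2*, with *ne298* and *qe20*; and *simr-1 mut-2*, with *cmp36* and *mut-2(cmp306)*. The *mut-2* allele of *simr-1 mut-2* is therefore not that of *mut-2*, and a difference between these strains cannot be told apart from one between alleles.

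HRDE-1 is a germline Argonaute protein that carries secondary small interfering RNAs into the nucleus, where it directs transcriptional silencing that can be inherited. MUT-2 is a nucleotidyltransferase needed to amplify one branch of these secondary small RNAs, SIMR-1 is a Tudor domain protein of perinuclear germ granules, and HRDE-2 is a germ granule protein of the HRDE-1 pathway. The arms of *C. elegans* autosomes recombine more than the centres and hold more repeats and more members of large, fast-evolving gene families, while conserved genes lie mostly in the centres. Clone-named genes are mostly genes whose function has not been worked out, and the annotation used here gives no product for them, so that no role is stated for the genes named below.

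Values are counts scaled to a total of 1000000 on genes in every library (RPM), so each is a share of its library and not an absolute amount. The libraries held 4275760 to 17448124 assigned counts (median 10220030), and 10 RPM stood for at least 42.8 counts. Ribosomal RNA made up 5.38% to 28.9% of the counts in the inputs and 0.677% to 2.42% in the IPs, which changes every share of an input, and its part in the differences between IP and input was not tested. Reads were counted without regard to strand, so small RNAs of either strand are summed. No counts on miRNAs or piRNAs, which could mark soma and germline, were used here, and tissue composition was not checked. In whole animals, fewer cells of a type and less small RNA per cell cannot be told apart. The names of 22 of the libraries carry a suffix of unstated meaning, which all libraries of the 3 genotypes with a *mut-2* allele share, 1 wild-type and 1 *hrde-2* replicate carry, and no *simr-1* library has. Small RNAs on *simr-1* itself were at 132 to 179 RPM in inputs of wild-type and at 25 to 35.8 RPM in the inputs of the strains labelled *simr-1* and *simr-1 mut-2*. Small RNAs on *mut-2* were at 27.9 to 37.7 RPM in inputs of wild-type and at 43.3 to 59.3 RPM in the inputs of the 3 strains with a *mut-2* allele. Those on *hrde-2* were at 39.2 to 54.6 RPM in inputs of wild-type, at 30.99 to 36.1 RPM in inputs of *hrde-2* and at 65.0 to 72.0 RPM in inputs of *mut-2; hrde-2*. Small RNA levels on a gene do not measure its product, and these levels do not check the *mut-2* and *hrde-2* labels.

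The clone-named genes of the arms were somewhat shorter than those of the centre, with a median exon length of 836 against 927.5 bases and a median of 4 against 5 exons. Exons of another gene overlapped 114 of the 1013 arm genes (11.3%) and 253 of the 1080 centre genes (23.4%), and reads there could not be assigned to one gene alone. In addition, 24 names are each carried by a pair of separate genes (28 genes of the arms and 20 of the centre), and for 18 of these names both genes have the same exon length. Reads that matched several positions were split between them, so the values of such a pair are uncertain for each gene. Most of these genes had few small RNAs, and the median level was below 1 RPM in every condition in both regions. In the wild-type inputs, 209 arm genes (20.6%) and 193 centre genes (17.9%) averaged 10 RPM or more. Enough counts for a test in at least 1 of 13 comparisons were found for 522 arm genes (51.5%) and 532 centre genes (49.3%). The remaining 1039 genes were tested in none, and 7 arm genes and 3 centre genes had no count in any of the 36 libraries.

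The boundaries are lines of position, and no measured value marks them. Just below 6 Mb, M03F8.6 and C10F3.7 had 0.156 and 0.588 RPM in inputs of wild-type, and just above it F29G9.1 and R01B10.2 had 165 and 1.85 RPM. At 16 Mb, C06C6.9 and C06C6.8 on the centre side had 0.0844 and 0.450 RPM, and T10C6.6 and T10C6.7 on the arm side had 22.2 and 15.3 RPM.

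The arm genes held more of the small RNA than the centre genes in 3 of the 6 inputs. In the wild-type inputs, arm genes took 3.53, 3.08 and 3.11% of all assigned counts and centre genes 1.43, 1.41 and 1.26%. Every arm value lay above every centre value, and the arms held 2.38 ± 0.165 (SD, n = 3) times as much as the centre. The ratio was 2.90 ± 0.158 (SD, n = 3) in the *hrde-2* inputs and 2.50 ± 0.101 (SD, n = 3) in the *simr-1* inputs. In the *mut-2* inputs it was 0.888 ± 0.0170 (SD, n = 3), in *mut-2; hrde-2* 0.892 ± 0.0430 (SD, n = 3) and in *simr-1 mut-2* 0.737 ± 0.0134 (SD, n = 3), so in all 9 inputs with a *mut-2* allele the arms held less than the centre. The share on the centre genes moved little between these genotypes, from a mean of 1.03% in *mut-2* to 1.37% in wild-type, while the share on the arm genes was 3.24% ± 0.250 (SD, n = 3) in wild-type and 0.916% ± 0.0315 (SD, n = 3) in *mut-2*. Genes are not replicates of a region, and no test was run on these shares. The ratios depended on where the lines were drawn: with boundaries at 5 and 17 Mb the ratio was 1.46 in the wild-type inputs and 0.577 in the *mut-2* inputs, and with boundaries at 7 and 15 Mb it was 3.32 and 1.09. Among genes without exon overlap it was 2.82 and 1.11, so the order within the *mut-2* inputs was not the same in all 3 settings.

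With HRDE-1, the arm genes took 3.91, 3.51 and 3.89% of the wild-type IP counts and the centre genes 1.89, 1.65 and 1.74%. The arms over centre ratio was 2.15 ± 0.0831 (SD, n = 3) in the wild-type IPs, close to that of the inputs. In the *hrde-2* IPs it was 0.979 ± 0.0675 (SD, n = 3), with 1.41, 1.47 and 1.52% of the counts on arm genes there against 3.82, 4.00 and 3.97% in the inputs of the same lysates. All 3 of these IPs lay below all 3 inputs. The mean ratio of the IP share to the input share in *hrde-2* was 0.374 ± 0.00825 (SD, n = 3) in the arms and 1.11 ± 0.0180 in the centre. In *mut-2* it was 2.27 ± 0.0667 in the arms and 1.30 ± 0.0318 in the centre, and in wild-type 1.17 ± 0.0736 and 1.29 ± 0.108. With structural RNAs left out of the totals, these ratios were 0.965 in the arms and 1.07 in the centre in wild-type, and 1.49 and 0.855 in *mut-2*. Without the 3 genes of highest mean level in each region, they were 0.563 and 1.20 in *hrde-2* and 1.58 and 1.21 in *mut-2*. In wild-type the arm ratio was then 1.30. The *mut-2; hrde-2* IPs had 1.18% ± 0.00529 (SD, n = 3) on arm genes and 1.56% ± 0.00616 (SD, n = 3) on centre genes.

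**Figure D1:**
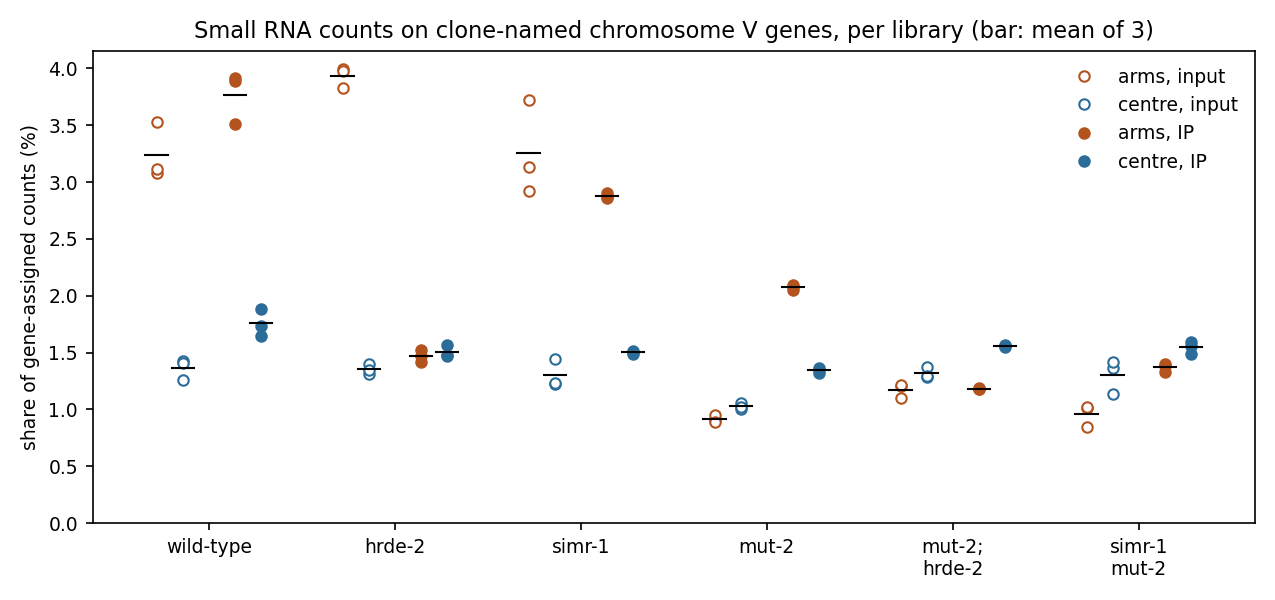
Share of the gene-assigned counts (%, vertical axis) on the 1013 arm genes (orange) and the 1080 centre genes (blue) in each library of the 6 genotypes, with open points for inputs, filled points for HRDE-1 IPs and bars for the mean of 3. The arms stand above the centre in the wild-type, *hrde-2* and *simr-1* inputs, with means of 3.24%, 3.93% and 3.26%, and in *hrde-2* they drop to 1.47% in the IPs.

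Over all genes of a region, most of them with few small RNAs, the medians of arms and centre lay close together. The log2 ratio of IP over input, with 1 RPM added to each, had a median that was higher in the arms than in the centre by 0.0532 ± 0.0114 (SD, n = 3) in wild-type, and the difference was 0.00661 in *hrde-2* and 0.000471 in *mut-2*. Among the 380 arm genes and 407 centre genes that averaged 1 RPM or more over the libraries, the wild-type difference was 0.718 ± 0.101, from a median of 0.465 in the arms and -0.253 in the centre. In *hrde-2* it was -0.440, with medians of -0.734 and -0.294. Counting only genes with small RNAs thus gave opposite signs in the 2 strains.

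A few genes carried much of these shares. In the wild-type inputs the 12 highest arm genes and the 31 highest centre genes were enough to reach 50% of the counts of their region, and in the *hrde-2* inputs 4 arm genes were. The largest single part belonged to B0250.8 (WBGene00007125, V:20469703-20470485, minus strand, 3 exons), which alone made up 50.3% of the counts on clone-named genes between 20 and 21 Mb in the wild-type inputs. Without the 3 genes of highest mean level in each region (B0250.8, K02E2.6 and CD4.8 in the arms, T11F9.10, F09G2.2 and T01C3.3 in the centre), the arms over centre ratio was 1.94 in the wild-type inputs, 1.86 in the *hrde-2* inputs and 0.753 in the *mut-2* inputs. In the *mut-2* IPs it went from 1.54 to 0.985, so the excess of the arms in those IPs was not seen without these genes. B0250.8 alone was enough to reach 50% of the right arm counts in those IPs. The right arm held 2.17% of the wild-type input counts and the left arm 1.07%.

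B0250.8 had the highest RPM of all clone-named genes of chromosome V, with 5660.3, 5539 and 5824 RPM in inputs of wild-type and 6207, 6485 and 6639.7 RPM in the IPs. In *hrde-2* the inputs rose to 14631, 14938 and 15546 RPM, while the IPs held 1317, 1360.3 and 1625 RPM. All 3 inputs of *hrde-2* were thus above all wild-type inputs (log2 1.56 ± 0.128 SE, adjusted p = 0.000116), and all 3 of its IPs were below its inputs (log2 -3.62 ± 0.168 SE, adjusted p = 8.41e-07). The IP to input ratio was lower in *hrde-2* than in wild-type in the test of the difference itself (log2 -3.80 ± 0.214 SE, adjusted p = 1.12e-08). In *mut-2*, the inputs had 1551, 1742 and 1399.6 RPM and the IPs 8411, 8934 and 8519 RPM, with no overlap. The *mut-2; hrde-2* inputs had 1642, 2011 and 2342 RPM and the IPs 181, 208 and 169 RPM, the reverse order (log2 -5.77 ± 0.185 SE, adjusted p = 2.22e-13, against *mut-2*).

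Other genes of high level behaved differently with HRDE-1. K02E2.6 (WBGene00010507, V:20380561-20382036, plus strand, 5 exons), which overlaps the non-coding gene WBGene00189975, had 2975, 1961 and 2142 RPM in inputs of wild-type and only 35.3, 54.6 and 40.1 RPM in the IPs. Y17D7B.4 (WBGene00012452, V:18776198-18780216, minus strand, 4 exons), next to it by input level among arm genes, had 2880.1, 1519 and 1586 RPM in the inputs and 22.8, 31.2 and 24.8 RPM in the IPs. Both were far below their inputs in the IPs of all 6 genotypes, and both were low in the inputs of *mut-2*, where K02E2.6 had 60.4, 54.3 and 34.6 RPM. In the centre, T11F9.10 (WBGene00011712, V:11487152-11488275, plus strand, 2 exons), whose exons overlap *srh-1*, had 1193, 831 and 1007 RPM in inputs of wild-type and 2151, 1249 and 1710.2 RPM in the IPs. Per kilobase of exon the wild-type input level was 8200.0 RPM for B0250.8, 3299.8 RPM for K02E2.6, 2849.9 RPM for Y17D7B.4 and 1033 RPM for T11F9.10, the same order as without the length.

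In wild-type, more arm genes than centre genes were enriched with HRDE-1. A gene was called higher or lower when IP and input differed at least 2-fold at an adjusted p of at most 0.05 in edgeR's quasi-likelihood test over all features. Values written as log2 are its log2 fold changes, or differences of these for a change of enrichment. Of 472 arm genes tested, 215 were higher in the IP (45.6%), against 28.9% of all 14477 features tested, and 69 were lower (14.6%), against 25.3%. Of 446 centre genes tested, 121 were higher (27.1%) and 91 lower (20.4%). As shares of all genes of a region, 21.2% of the arm genes and 11.2% of the centre genes were higher, against 13.5% of all 31106 features. The same share was 20.9% in the left arm and 21.6% in the right arm. Of those higher in the IP, 122 of the 215 arm genes and 76 of the 121 centre genes had at least 10 RPM there, against 2500 of all 4191 features.

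The share of genes higher in the wild-type IP was also larger in the arms among genes that do have names. Of 1397 named protein-coding genes in the arms of chromosome V, 17.5% were higher in the wild-type IP, and of 1461 in the centre, 9.24%. Among 1322 clone-named protein-coding genes of chromosome X, 26.2% were higher. The share of counts on the named genes did not have this order: in the wild-type inputs it was 1.85% ± 0.173 (SD, n = 3) in the arms and 2.62% ± 0.325 in the centre, and in the wild-type IPs 2.23% ± 0.0478 and 2.19% ± 0.0755. Scaling by library size alone moved the median log2 fold change of all features from 0.15 to -0.20 and left 136 arm genes higher and 87 lower, and 68 centre genes higher and 130 lower. In the centre this turned the balance of the calls, and the shares of all features called with that scaling are not set beside these counts. The medians of the genes tested stayed above that of all features in both regions. In the first scaling they were 0.98 in the arms and 0.41 in the centre, against 0.15. In the second they were 0.64 and 0.07, against -0.20.

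**Figure D2:**
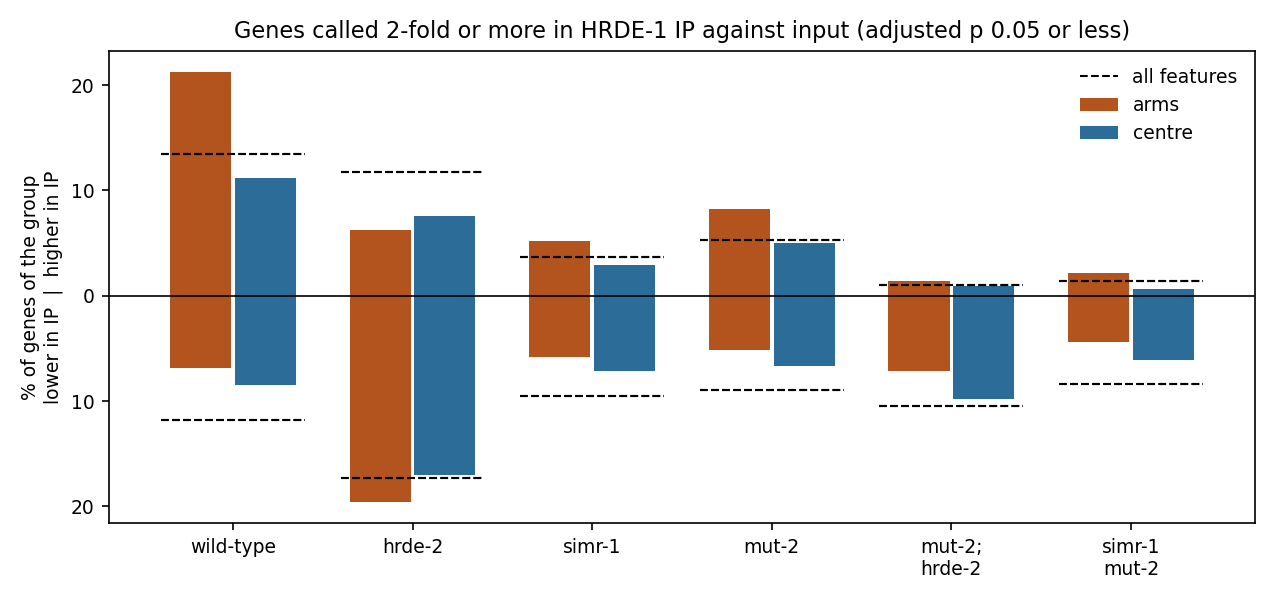
Share of the arm genes (orange) and centre genes (blue) called higher (up) or lower (down) in the HRDE-1 IP than in the input in each of the 6 genotypes (% of all genes of the group, vertical axis), with dashed lines for all 31106 features. The wild-type bars reach 21.2% of arm genes and 11.2% of centre genes higher, and the *hrde-2* bars 19.5% and 17% lower.

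Along the chromosome, the share of clone-named genes higher in the wild-type IP was largest in 1 bin of each arm. In bins of 1 Mb it was 33.3% of 81 genes between 2 and 3 Mb and 33.7% of 86 genes between 20 and 21 Mb, and lowest at 3% of 100 genes between 9 and 10 Mb. At the left end it was 21.1% between 0 and 1 Mb and 20% between 1 and 2 Mb. The bin between 2 and 3 Mb holds several of the pairs of genes with one name, whose reads were split between them. The arm bins ran from 15.7% to 33.7% and the centre bins from 3% to 15.2%, so the ranges of the bins did not overlap. Some bins of the 2 regions lay close to each other: the centre bin between 6 and 7 Mb had 15.2% and the arm bin between 4 and 5 Mb 15.7%.

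**Figure D3:**
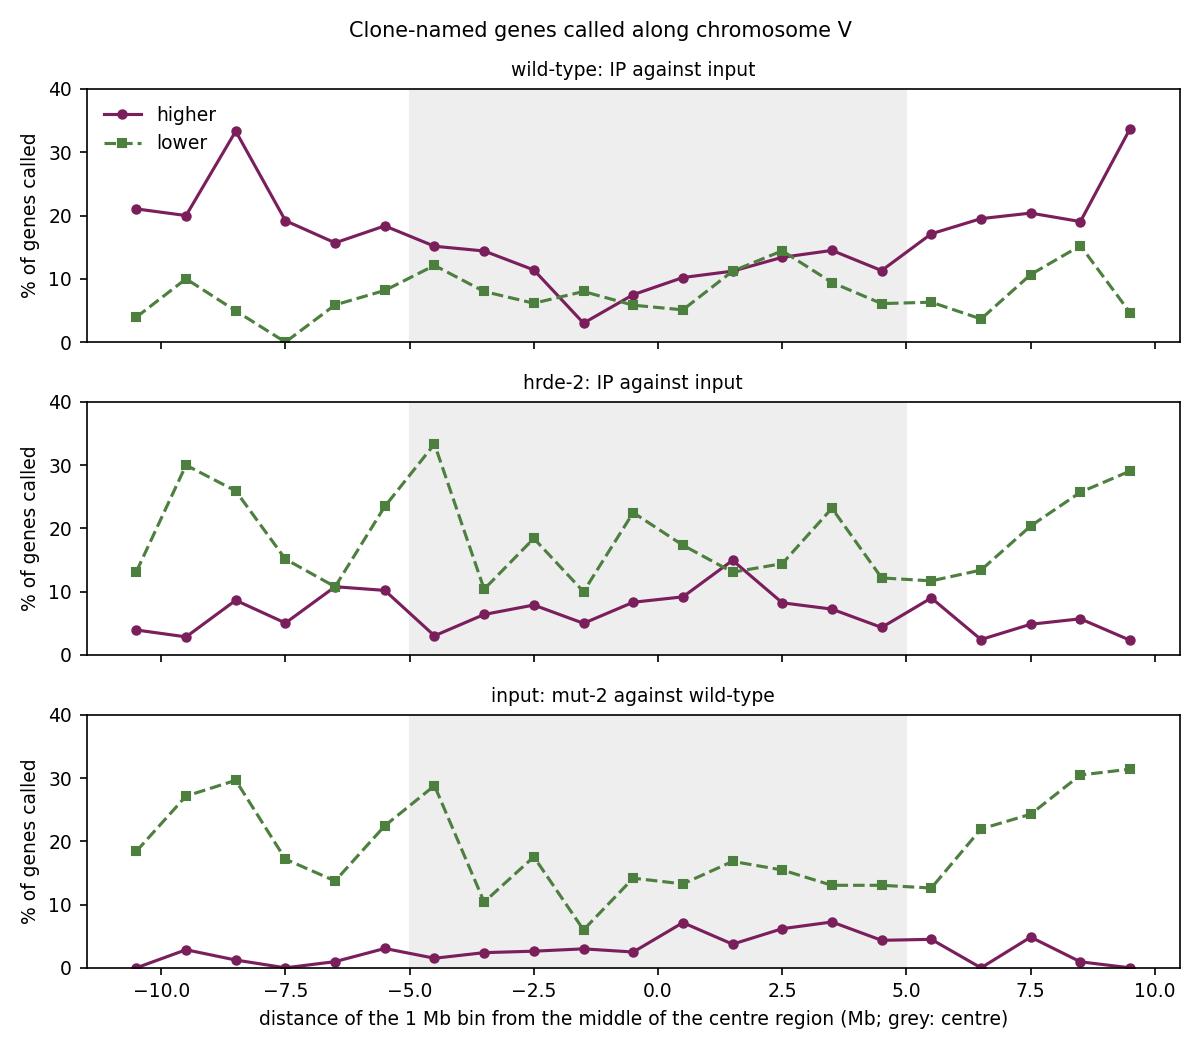
Share of clone-named genes called higher (circles) or lower (squares) in 1 Mb bins (% of the genes in the bin, vertical axis), against the distance of the bin from the middle of the centre region (Mb), for IP against input in wild-type and in *hrde-2* and for *mut-2* against wild-type inputs. The share higher in the wild-type IP is between 15.7% and 33.7% in the arm bins and between 3% and 15.2% in the grey centre bins, and the share lower in the *mut-2* inputs peaks at 31.4% between 20 and 21 Mb.

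Genes are named below by size of change, among called genes with at least 10 RPM in the higher group, replicates that did not overlap and no exon shared with another gene. Among arm genes, Y20C6A.4 (WBGene00077495, V:17380232-17381119, plus strand, 2 exons) rose most in the wild-type IP, from 5.25, 4.18 and 6.46 RPM to 34.4, 41.7 and 41.8 RPM (log2 3.24 ± 0.236 SE, adjusted p = 5.18e-05). C45H4.14 (WBGene00016695, V:2158674-2159427, minus strand, 3 exons) rose from 17.5, 35 and 20.7 RPM to 98.5, 151 and 127 RPM, and C31G12.1 (WBGene00007850, V:18179943-18181373, plus strand, 3 exons) from 33.8, 47.6 and 38.8 RPM to 152, 178 and 200.3 RPM. All 3 were higher in the IPs of *simr-1* and *mut-2* as well, and none was higher in those of *hrde-2*: C45H4.14 fell there from 23.2, 13.3 and 13.8 RPM to 10.7, 8.61 and 8.65 RPM, and C31G12.1 had 13.6, 10.8 and 11.8 RPM in the inputs and 13.5, 15.5 and 13.6 RPM in the IPs. R02C2.1 (WBGene00019814, V:236750-238192, minus strand, 3 exons), the arm gene with the second highest IP level, rose from 582, 618 and 579 RPM to 1539.7, 1914 and 2160.2 RPM (log2 2.00 ± 0.176 SE, adjusted p = 7.95e-05). F41B5.1 (WBGene00023284, V:2255533-2256658, plus strand, 3 exons), next by IP level, had 856, 617 and 822 RPM in the inputs and 1448, 1356 and 1560.1 RPM in the IPs (log2 1.26 ± 0.185 SE, adjusted p = 0.000569).

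The 3 largest falls of arm genes all lay between 18 and 20 Mb. Besides Y17D7B.4, they were Y43F8B.22 (WBGene00194699, V:19482835-19482984, plus strand, 1 exon) and Y43F8B.29 (WBGene00219455, V:19491602-19491820, plus strand, 1 exon). Y43F8B.22 had 102, 75.6 and 66.6 RPM in inputs of wild-type and 0.308, 1.07 and 0.778 RPM in the IPs (log2 -6.51 ± 0.363 SE, adjusted p = 3.71e-05). Y43F8B.29 had 208, 149.6 and 113 RPM and 1.85, 2.06 and 2.01 RPM. Both also fell in the IPs of *hrde-2* and *simr-1*, and in the inputs of *mut-2* they had at most 1.31 and 1.48 RPM.

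In the centre, F09G2.2 (WBGene00017311, V:7196916-7198437, plus strand, 4 exons) was among the 3 largest rises and had the second highest IP level. It went from 180.4, 226 and 179 RPM in inputs of wild-type to 1187, 872 and 1097 RPM in the IPs (log2 2.77 ± 0.170 SE, adjusted p = 3.90e-05). Its input stayed between 155 and 226 RPM in all 6 genotypes, while its IPs held 261, 286 and 299 RPM in *hrde-2* and 952, 852 and 949 RPM in *simr-1*. ZC404.16 (WBGene00195226, V:6772569-6773165, minus strand, 2 exons) rose from 8.03, 8.35 and 6.01 RPM to 51.4, 41.0 and 41.0 RPM, and F45D3.2 (WBGene00009722, V:12541040-12542973, plus strand, 6 exons) from 5.35, 3.16 and 6.31 RPM to 27.7, 11.9 and 26.1 RPM. C06B8.7 (WBGene00007372, V:15498743-15511421, plus strand, 25 exons), next after F09G2.2 by IP level, had 384, 349.6 and 386 RPM in the inputs and 793, 713 and 917 RPM in the IPs. C06B8.7, named for its level alone, was also higher in all 3 IPs than in all 3 inputs of wild-type, which the choice required of the others.

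The largest falls in the centre were Y36E3A.2 (WBGene00194708, V:15426166-15426970, plus strand, 3 exons), H37A05.4 (WBGene00044200, V:13646884-13648397, minus strand, 6 exons) and F46B6.5 (WBGene00009770, V:9779550-9783062, minus strand, 14 exons). Y36E3A.2 went from 772, 386 and 611 RPM in inputs of wild-type to 2.52, 7.01 and 6.74 RPM in the IPs (log2 -6.43 ± 0.501 SE, adjusted p = 5.93e-05) and was far below its inputs in the IPs of all 6 genotypes. H37A05.4 went from 175, 244 and 165 RPM to 59.4, 40.2 and 49.4 RPM. F46B6.5 changed direction between genotypes: it went from 106, 131 and 86.9 RPM to 24.5, 35.4 and 26.6 RPM in wild-type and from 88.3, 90.3 and 96.2 RPM to 319, 266 and 258.2 RPM in *hrde-2* (log2 3.27 ± 0.238 SE, adjusted p = 2.58e-08 for the difference).

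Among the clone-named genes of both regions, more were below than above their input in the *hrde-2* IP. In *hrde-2*, 198 of 357 arm genes tested were lower in the IP than in the input (55.5%) and 184 of 393 centre genes (46.8%), against 41.9% of all features tested. Higher in the IP were 63 arm genes (17.6%) and 82 centre genes (20.9%), against 28.5%. The median log2 fold change was -1.61 over the arm genes tested, -0.74 over the centre genes and -0.34 over all features.

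The change of enrichment between *hrde-2* and wild-type was tested as an interaction over 12 libraries. Enrichment was lower in *hrde-2* for 283 of 498 arm genes (56.8%) and for 203 of 490 centre genes (41.4%), against 36.1% of all features tested, and higher for 86 arm genes (17.3%) and 128 centre genes (26.1%), against 33.7%. Its median was -2.31 over the arm genes, -0.90 over the centre genes and -0.07 over all features. In the 1 Mb bins, the share lower by this test ran from 8% between 9 and 10 Mb to 48.8% between 20 and 21 Mb. Most centre bins lay inside the range of the arm bins, which was 16.7% to 48.8%, and the highest centre bin was that between 6 and 7 Mb, with 31.8%. Only the centre bins between 7 and 8 Mb, between 9 and 10 Mb and between 15 and 16 Mb lay below this range.

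Y73C8C.3 (WBGene00022262, V:3115303-3118128, plus strand, 7 exons) had the largest loss of enrichment among the arm genes. It had 76.8, 89.2 and 90.04 RPM in inputs of wild-type and 204, 322 and 381 RPM in the IPs. In *hrde-2* its inputs held 93.2, 69.1 and 67.6 RPM and its IPs 12.6, 10.6 and 11.7 RPM (log2 -4.78 ± 0.329 SE, adjusted p = 1.83e-08). The inputs of both strains overlapped, and the IPs did not. R02C2.1 had 742, 642 and 607 RPM in the *hrde-2* inputs and 93.4, 106 and 122 RPM in the IPs (log2 -4.52 ± 0.259 SE, adjusted p = 1.12e-08). H24K24.2 (WBGene00019239, V:917817-925945, plus strand, 13 exons) went from 24.9, 15.2 and 23.7 RPM in the wild-type IPs to 0.664, 0.988 and 0.975 RPM in those of *hrde-2*, with inputs of 7.93, 5.87 and 7.52 RPM in wild-type and 6.32, 5.68 and 5.89 RPM in *hrde-2*. In all 3 genes the inputs of the 2 strains overlapped and the IPs did not.

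In the centre, F45D3.1 (WBGene00009721, V:12527058-12528023, plus strand, 3 exons) had the largest loss, from 263, 135 and 245 RPM in the wild-type IPs to 4.07, 7.76 and 10.7 RPM in the *hrde-2* IPs, and its inputs were at 81.7, 54.3 and 67.0 RPM and 44.5, 50.6 and 48.2 RPM (log2 -4.56 ± 0.445 SE, adjusted p = 3.83e-07). C50B8.4 (WBGene00008226, V:13572037-13573423, plus strand, 4 exons) had IP levels of 139.7, 230.0 and 154 RPM and 10.0, 7.06 and 10.1 RPM, with inputs of 86.6, 85.4 and 67.0 RPM and 82.4, 84.9 and 77.2 RPM. C18B10.6 (WBGene00015963, V:7479217-7481049, minus strand, 6 exons) had IP levels of 28.7, 40.6 and 30.5 RPM and 1.49, 1.55 and 1.71 RPM. For each of the 3 the IPs of *hrde-2* were all below those of wild-type.

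The 3 largest gains of enrichment in *hrde-2* had a log2 difference between 3.31 and 3.50 in the arms and between 3.32 and 3.63 in the centre. T10B5.3 (WBGene00020389, V:1864181-1868571, minus strand, 6 exons), on the left arm, had 48.5, 62.3 and 52.6 RPM in inputs of wild-type and 15.7, 21.3 and 21.8 RPM in the IPs. In *hrde-2* its inputs held 50.5, 50.3 and 54.9 RPM and its IPs 257.6, 245 and 244 RPM (log2 3.50 ± 0.235 SE, adjusted p = 1.64e-08). F44E7.4 (WBGene00018426, V:5772831-5777034, minus strand, 15 exons) went from 42.1, 56.1 and 47.5 RPM in the wild-type IPs to 535, 523 and 529 RPM in those of *hrde-2*, and T22F3.2 (WBGene00020695, V:3586639-3589015, plus strand, 8 exons) from 55.9, 48.8 and 61.9 RPM to 524, 757 and 658 RPM. All 3 were below their inputs in the wild-type IPs and above them in the *hrde-2* IPs, with no overlap between the IPs of the 2 strains.

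Of the centre genes, F53F4.11 (WBGene00009993, V:13622107-13624525, minus strand, 6 exons) went from 16.6, 23.5 and 21.3 RPM to 298, 230.0 and 225 RPM in the IPs (log2 3.63 ± 0.251 SE, adjusted p = 1.93e-08). R02D5.8 (WBGene00050937, V:14518351-14519368, minus strand, 3 exons) went from 4.68, 4.62 and 4.93 RPM to 53.6, 52.3 and 56.5 RPM, and F45F2.10 (WBGene00018482, V:8513577-8518764, minus strand, 14 exons) from 32.7, 37.0 and 34.4 RPM to 419, 372 and 379 RPM. Their inputs overlapped between wild-type and *hrde-2*, with 76.6, 111 and 62.1 RPM and 78.2, 75.8 and 83.7 RPM for F45F2.10.

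**Figure D4:**
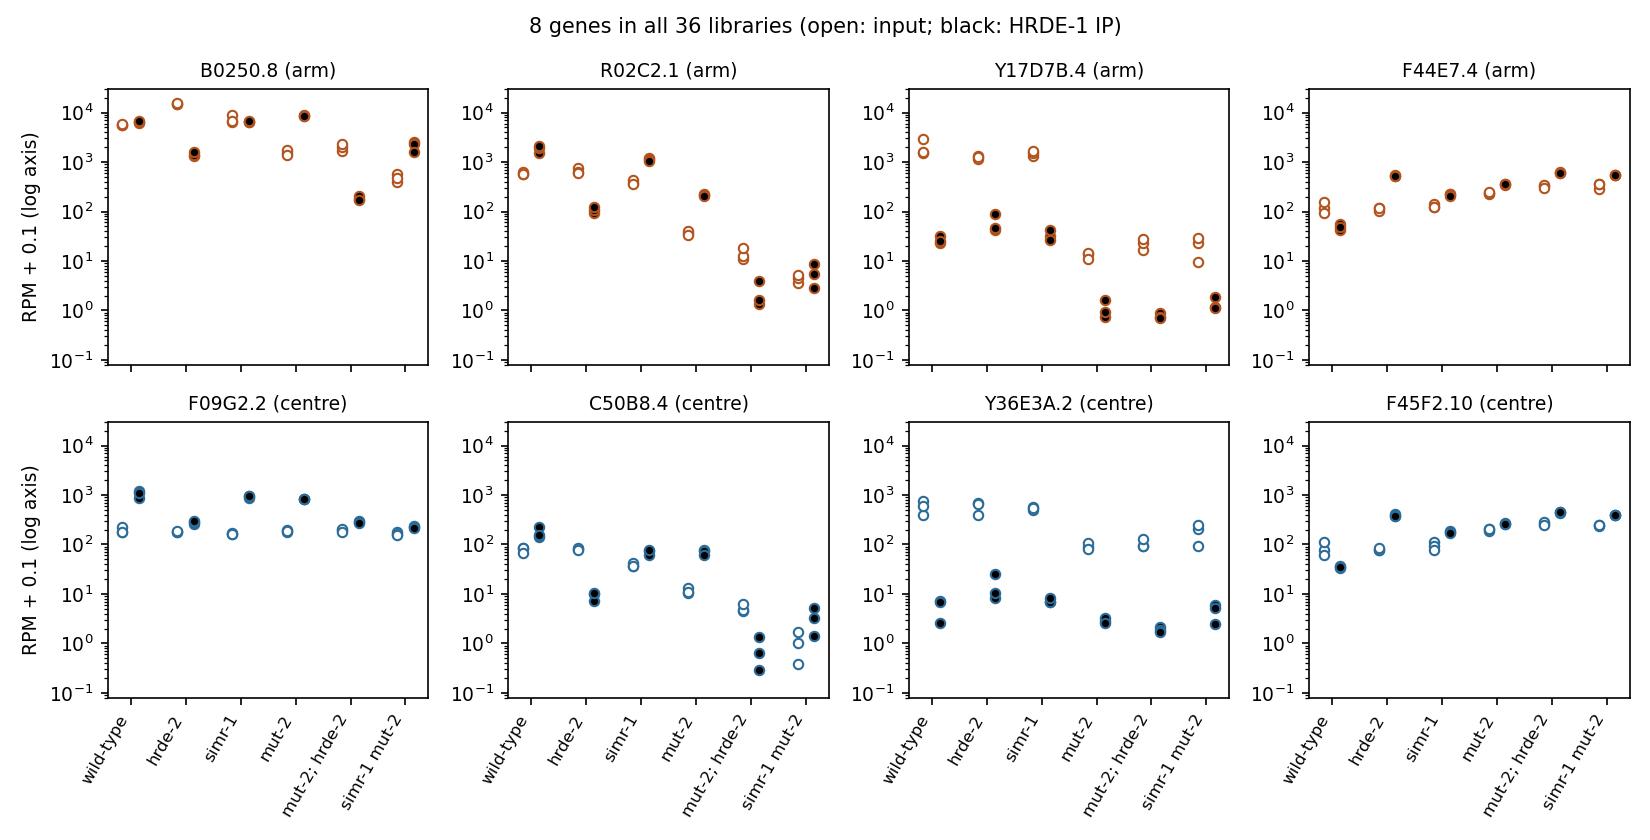
Level (RPM + 0.1, log axis) of 4 arm genes (upper row, orange) and 4 centre genes (lower row, blue) in all 36 libraries, with open points for inputs and black points for HRDE-1 IPs of each genotype. B0250.8, R02C2.1 and C50B8.4 lie above their inputs in the *mut-2* IPs and below them in the *hrde-2* IPs, while F44E7.4 and F45F2.10 lie above their inputs in the *hrde-2* IPs and below them in the wild-type IPs.

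The wild-type and *hrde-2* tests of IP against input share no library and can be set side by side. Of the 215 arm genes higher in the wild-type IP, 144 were tested in *hrde-2* and 108 were lower in its IP, which is 50.2% of the 215 and 54.5% of the 198 arm genes lower in *hrde-2*. In the centre 66 genes were in both lists, 54.5% of the 121 and 35.9% of the 184. Over all features these shares were 46.8% of the 4191 higher in wild-type and 36.4% of the 5384 lower in *hrde-2*. Of the 69 arm genes lower in the wild-type IP, 18 were higher in the *hrde-2* IP and 41 lower, and of the 91 such centre genes 34 were higher and 37 lower. Of the 3656 features lower in the wild-type IP, 1236 were higher and 1591 lower. Among genes tested in both genotypes, 184 of 347 in the arms and 144 of 364 in the centre had a positive log2 fold change in wild-type and a negative one in *hrde-2*, and 62 and 112 had the opposite signs. No share over all features is set beside these counts of signs, so they do not show what is particular to the clone-named genes.

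**Figure D5:**
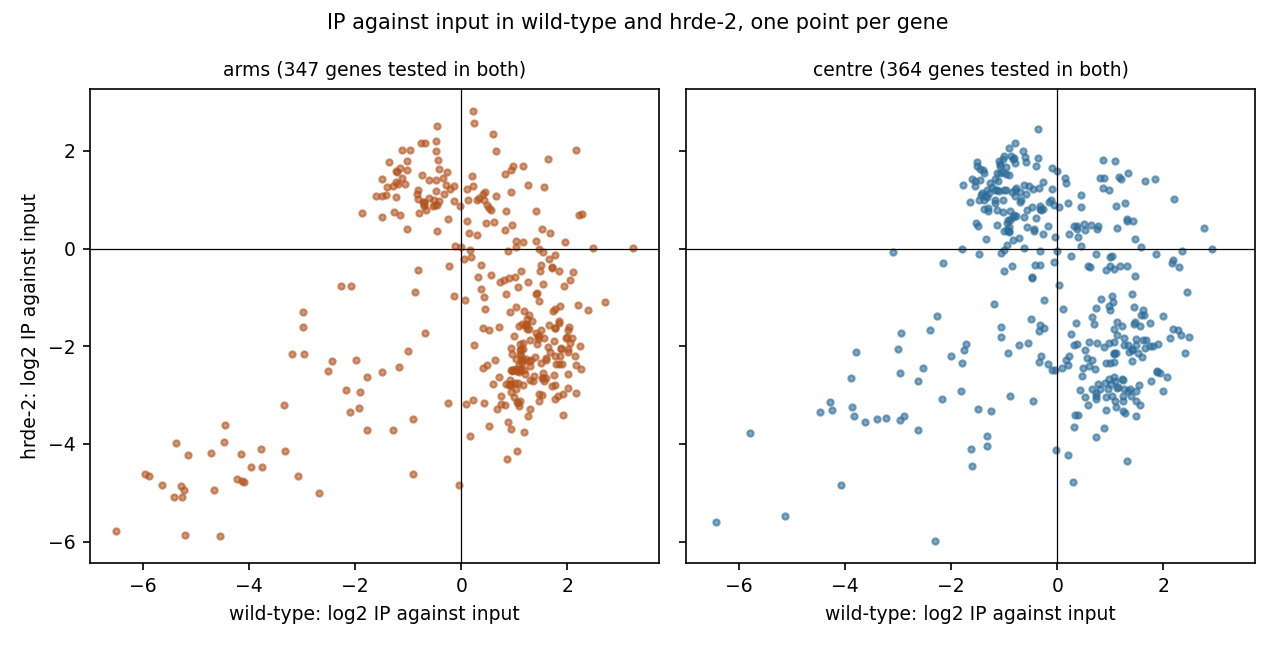
Log2 fold change of IP against input in wild-type (horizontal axis) and in *hrde-2* (vertical axis) for the 347 arm genes (left) and 364 centre genes (right) tested in both genotypes, one point per gene. In the arms 184 points lie at lower right and 62 at upper left, and in the centre 144 and 112. All other features are not drawn.

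In the *mut-2* inputs, more than 50% of the arm genes tested and fewer of the centre genes were lower than in wild-type. Of 386 arm genes tested, 226 were lower in the *mut-2* inputs than in wild-type (58.5%) and 18 were higher, and of 414 centre genes 154 were lower (37.2%) and 45 higher, against 33.1% lower and 11.1% higher of all features tested. The named genes of chromosome V had 47.3% lower of those tested in the arms and 24.8% in the centre. Clone-named genes of chromosome X had 62.2% lower, so the loss was not particular to the clone-named arm genes. The median log2 fold change was -2.08 over the arm genes, -0.17 over the centre genes and -0.01 over all features. Scaling by library size alone left 217 arm genes lower and 45 higher, and 145 centre genes lower and 89 higher, with the median of all features moved to 0.32. With only the libraries that carry the name suffix, which left 1 wild-type input, 119 arm genes were lower and 7 higher, and 89 centre genes were lower and 28 higher. The spread of that lone input was taken from the *mut-2* inputs, and no share of all features is set beside the counts of these alternative fits. Without replicate 3 of both strains, 9 arm genes were higher.

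The 3 largest falls of arm genes in the *mut-2* inputs were those of Y51A2A.6, F21D9.8 and F19B2.6. Y51A2A.6 (WBGene00013062, V:18302714-18303506, plus strand, 3 exons) had 88.2, 62.1 and 84.0 RPM in inputs of wild-type and 0, 0.328 and 0 RPM in those of *mut-2*, at least 173-fold lower with each *mut-2* library set to 3 counts. F21D9.8 (WBGene00009021, V:19279218-19279988, minus strand, 4 exons) had 211, 148 and 211 RPM and 0.984, 0.492 and 0.369 RPM (log2 -8.61 ± 0.318 SE, adjusted p = 2.22e-08). F19B2.6 (WBGene00008945, V:20158523-20161788, plus strand, 9 exons) had 151, 198 and 165 RPM and 1.31, 1.15 and 0.123 RPM (log2 -8.05 ± 0.403 SE, adjusted p = 9.15e-08). All 3 also fell in the *hrde-2* inputs, where F19B2.6 had 11, 7.04 and 8.18 RPM, and Y51A2A.6 and F19B2.6 fell in the *simr-1* inputs.

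In the centre the 3 largest falls were those of F56H9.8, ZK1055.2 and T01G5.8. F56H9.8 (WBGene00189948, V:12644800-12646632, plus strand, 5 exons) had 28.6, 18.2 and 26 RPM in inputs of wild-type and 0.164, 0 and 0 RPM in those of *mut-2*, at least 53.8-fold lower by the same floor. ZK1055.2 (WBGene00022843, V:6590583-6593634, plus strand, 10 exons) had 68.9, 51.5 and 60.9 RPM and 0.164, 0.164 and 0.492 RPM. T01G5.8 (WBGene00077585, V:15116268-15116595, plus strand, 2 exons) had 106, 68.8 and 81.6 RPM and 0.656, 0.656 and 0.246 RPM, while its *simr-1* inputs were at 113, 141 and 117 RPM. ZK1055.7 (WBGene00022848, V:6602728-6605375, minus strand, 6 exons), 1 of the 3 centre genes of highest input level, had 471, 424 and 416 RPM in wild-type and 7.54, 6.89 and 4.3 RPM in *mut-2*, and T01G5.8 and ZK1055.2 lay far below wild-type in all 3 *mut-2* inputs.

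The genes that rose in the *mut-2* inputs had smaller changes, with a log2 fold change between 1.12 and 1.39 for 5 of the 6 named here. In the arms these were Y59A8B.12 (WBGene00013349, V:18085630-18086225, minus strand, 4 exons), from 30.0, 48.2 and 29 RPM to 112, 102 and 113 RPM, F13A7.14 (WBGene00045357, V:16401891-16405325, plus strand, 4 exons) and F53E10.6 (WBGene00018762, V:2602153-2603063, minus strand, 4 exons). In the centre they were C25D7.10 (WBGene00007720, V:15067465-15068581, plus strand, 2 exons), C56A3.6 (WBGene00008345, V:13553374-13556408, minus strand, 9 exons) and F57F4.2 (WBGene00019016, V:6386550-6389734, minus strand, 2 exons). The first 5 of these 6 kept no call with only the libraries of one suffix, where the log2 fold change was 0.63 for Y59A8B.12, 0.47 for F13A7.14, 0.51 for F53E10.6, 0.89 for C25D7.10 and 0.58 for C56A3.6, and F53E10.6 and C56A3.6 were at 0.93 and 0.86 without replicate 3.

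F57F4.2 stood apart from the others. It had 0.412, 0.790 and 0 RPM in inputs of wild-type and 20.5, 17.2 and 9.59 RPM in the *mut-2* inputs (log2 4.81 ± 0.569 SE, adjusted p = 5.24e-05), with 2.32, 3.78 and 4.94 RPM in *mut-2; hrde-2* and no count in the 3 *simr-1 mut-2* inputs. In the *mut-2* IPs it had 0.943, 0.489 and 0.316 RPM, below all 3 inputs. The highest inputs on this gene were thus those of *mut-2* and *mut-2; hrde-2*. The *simr-1 mut-2* strain differs from *mut-2* both in its *mut-2* allele and in *simr-1*, and these cannot be told apart.

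HRDE-1 in *mut-2* was richer in arm genes than its inputs were. In *mut-2*, 83 of 312 arm genes tested were higher in the IP (26.6%) and 52 lower (16.7%), against 13.4% and 22.3% of all features tested, and of 383 centre genes 54 were higher (14.1%) and 72 lower (18.8%). Higher in the wild-type IP as well, a test on other libraries, were 71 arm genes, 33% of the 215 and 85.5% of the 83, and 44 centre genes, 36.4% of the 121 and 81.5% of the 54. Over all features the shares were 30.9% and 77.9%, close to those of the clone-named genes. No gene lower in the wild-type IP was higher in the *mut-2* IP in either region, and 1 of all features was.

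In *mut-2; hrde-2*, few features of any kind were higher in the IP. They were 14 of 265 arm genes tested (5.28%) and 10 of 333 centre genes (3.00%), against 2.96% of all features tested. Lower in the IP were 72 arm genes (27.2%) and 106 centre genes (31.8%), against 28.9%. The interaction against *mut-2* was lower for 95 of 332 arm genes (28.6%) and 88 of 399 centre genes (22.1%), against 21.4%, and higher for 4 and 5, against 1.74%. Without replicate 1, 2 or 3, 2 arm genes were higher each time, and without replicate 1 or 3, 3 centre genes. Y26G10.5 (WBGene00189930, V:17700436-17700824, minus strand, 2 exons) had the largest loss in the arms, with 10.7, 13.6 and 6.76 RPM in the *mut-2* inputs and 40.9, 45.1 and 25.8 RPM in the IPs. In *mut-2; hrde-2* its inputs held 14.5, 12.1 and 13.7 RPM and its IPs 0.453, 0.258 and 0.474 RPM (log2 -6.81 ± 0.407 SE, adjusted p = 8.83e-10). In the centre this was C50B8.4, with 77.9, 74.1 and 61.6 RPM in the *mut-2* IPs and 1.23, 0.193 and 0.542 RPM in those of *mut-2; hrde-2* (log2 -5.42 ± 0.381 SE, adjusted p = 7.82e-09). The IP values of the 2 strains did not overlap for either gene.

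In *simr-1 mut-2*, 22 of 271 arm genes tested and 7 of 347 centre genes were higher in the IP, against 3.75% of all features tested, and 44 and 66 were lower, against 22.5%. The counts higher rested in part on replicate 2, without which they were 10 and 3. By the interaction against *mut-2*, enrichment was lower for 52 of 337 arm genes (15.4%) and 31 of 417 centre genes (7.43%), against 10.7% of all features tested, and higher for 0 and 1, against 0.114%. For the 0, edgeR gave 14 arm genes higher at an unadjusted p under 0.05, DESeq2 called 1, and the fit with the lysate as a block called 1. Without replicate 1, 2 or 3 the arm genes lower were 34, 27 or 32, and without replicate 1, 4 arm genes were higher. Without replicate 2 the centre had 16 lower and 0 higher.

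In *simr-1*, the arms again had a larger share of genes higher in the IP than the centre. Of 393 arm genes tested, 53 were higher in the IP (13.5%) and 59 lower (15.0%), against 8.42% and 21.6% of all features tested, and of 406 centre genes 32 were higher (7.88%) and 77 lower (19%). Scaling by library size alone gave 104 arm genes higher and 58 lower, and 49 centre genes higher and 65 lower. The median log2 fold change of all features then moved from -0.01 to 0.33, and the shares of all features called are not set beside these counts. Of the 53 arm genes, 49 were among the 215 higher in the wild-type IP, and of the 32 centre genes 29 were among the 121, which is 92.5% and 90.6%, against 87.4% over all features.

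The direction of the *simr-1* interaction against wild-type depended on the scaling. With the scaling used throughout, 149 of 496 arm genes tested were lower (30.0%) and 16 higher, and 120 of 498 centre genes were lower (24.1%) and 26 higher, against 21.9% lower and 9.37% higher of all features tested. Scaling by library size alone moved the median of all features from -0.63 to 0.23 and gave 19 arm genes lower and 60 higher, and 20 centre genes lower and 110 higher, while DESeq2 gave 82 lower and 33 higher, and 61 lower and 62 higher. The median over arm genes lay below that over all features in each case, with -0.95 against -0.63, -0.10 against 0.23 and -0.61 against -0.29. Without replicate 2 the count lower in the arms was 99, and without replicate 3 it was 62 in the arms and 50 in the centre.

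T19C9.10 (WBGene00050934, V:17236592-17238097, plus strand, 6 exons) had the largest loss in this comparison among arm genes. It had 6.08, 6.55 and 3.61 RPM in inputs of wild-type and 9.23, 12.1 and 8.88 RPM in the IPs. In *simr-1* its inputs held 0.776, 1.06 and 0.251 RPM and its IPs 0.424, 0.459 and 0.382 RPM (log2 -2.49 ± 0.513 SE, adjusted p = 0.00195). These *simr-1* levels rest on few reads, and in replicate 3 the IP of T19C9.10 lay above its input. Its *hrde-2* and *mut-2* inputs held at most 3 counts each, at least 16.3-fold and 12-fold lower than wild-type. In the centre F07B7.2 (WBGene00017186, V:8870259-8872003, plus strand, 4 exons) held 156, 127 and 122 RPM in the inputs and 290.3, 225 and 225 RPM in the IPs of wild-type. In *simr-1* its inputs rose to 451, 689 and 542 RPM, and its IPs were at 344, 340.3 and 359 RPM (log2 2.12 ± 0.197 SE, adjusted p = 0.000251 for the inputs, log2 -2.42 ± 0.220 SE, adjusted p = 3.55e-05 for the enrichment). A second gene of this name, with the same exon length (WBGene00021107, V:8828165-8829909, plus strand), had means of 138 and 246 RPM in the inputs and IPs of wild-type and 561 and 353 RPM in those of *simr-1*, so reads of these genes may have been divided between them. The largest gains were T10B5.3 in the arms, with 65.7, 62.8 and 56.8 RPM in the *simr-1* inputs and 111, 107 and 101 RPM in the IPs (log2 1.39 ± 0.200 SE, adjusted p = 0.000216), and C56A3.5 (WBGene00008344, V:13551911-13553373, plus strand, 7 exons) in the centre. C56A3.5 was at 17.3, 21.2 and 17.1 RPM in the inputs and 4.74, 5.03 and 5.25 RPM in the IPs of wild-type. In *simr-1* its inputs held 25.9, 18.9 and 16.7 RPM and its IPs 28.8, 30.3 and 28.4 RPM (log2 1.52 ± 0.226 SE, adjusted p = 0.000249).

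The inputs of *hrde-2* and *simr-1* changed on fewer genes than those of *mut-2*. In *hrde-2*, 76 of 401 arm genes tested were lower than wild-type (19%) and 27 higher, and of 423 centre genes 45 were lower (10.6%) and 25 higher, against 10.0% lower and 4.06% higher of all features tested. The calls in the right arm were 50 lower of 196 tested and in the left arm 26 of 205. Without replicate 3 the arms had 49 lower and 15 higher and the centre 25 lower and 10 higher, and without replicate 2 the arms had 17 higher. In *simr-1*, 108 of 392 arm genes were lower (27.6%) and 7 higher, and of 415 centre genes 64 were lower (15.4%) and 6 higher, against 13.2% and 1.19%. Without replicate 1 the arms had 62 lower and 13 higher and the centre 39 lower, and without replicate 3 the arms had 60 lower and the centre 42 lower and 3 higher.

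The lists of genes lower in the *mut-2* inputs and lower in the *hrde-2* IP come from tests that share no library. Of the 226 arm genes lower in the *mut-2* inputs, 189 were tested in *hrde-2* and 159 were lower in its IP, 70.4% of the 226 and 80.3% of the 198. In the centre these were 108 genes, 70.1% of the 154 and 58.7% of the 184. Over all features the shares were 66.3% of those lower in the *mut-2* inputs, close to both regions, and 55.3% of those lower in the *hrde-2* IP. Of the genes higher in the *mut-2* inputs, 10 of 18 arm genes (55.6%) and 16 of 45 centre genes (35.6%) were higher in the *hrde-2* IP, against 35.8% over all features.

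The clone-named genes were counted by the number of genotypes in which they were higher in the IP. In the arms 724 genes (71.5%) were higher in the IP of no genotype, 181 (17.9%) of 1, 67 (6.61%) of 2, 31 (3.06%) of 3, 8 (0.790%) of 4 and 2 (0.197%) of 5. In the centre 873 genes (80.8%) were higher in none, 140 (13%) in 1, 41 (3.80%) in 2, 21 (1.94%) in 3, 4 (0.370%) in 4 and 1 (0.0926%) in 5. Of all 31106 features, 74.0% were higher in none, 18.9% in 1, 4.32% in 2, 2.23% in 3, 0.450% in 4 and 0.116% in 5. No clone-named gene of chromosome V was higher in all 6, and 7 of all features were.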

How the data were processed

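Per the labels and the study's methods, the authors cleaned the reads (FASTX-Toolkit, cutadapt 3.4), aligned them to WormBase release WS258 with Bowtie2 2.5.0, counted them with featureCounts of Subread 2.0.1, and deposited 1 table of estimated counts per library. Reads of several positions were split between them, and 10.4% of the values above 0 are not whole. Gene types and symbols came from Ensembl release 115, which held 30911 of the 31106 features. RPM used the deposited estimated counts over their library total. For the tests, estimated counts were rounded, where whole counts had been planned. Features reaching 10 counts in 3 or more libraries were fitted with edgeR 4.0.16 (R 4.3.3) quasi-likelihood tests with TMM scaling, and p-values were adjusted by Benjamini-Hochberg over all features tested. Enrichment differences were interactions over 12 libraries. A call needed a 2-fold change and an adjusted p of at most 0.05. Alternatives used DESeq2 1.42.0, other scalings, filters, boundaries and sets of libraries.

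Genes named were, per region, the 3 largest rises and falls among called genes with at least 10 RPM in the higher group, replicates that did not overlap and no exon shared with another gene (1 for the *simr-1* and *mut-2; hrde-2* interactions), and the 3 genes of highest RPM in the wild-type inputs and IPs. Genes, lists and tests were chosen with earlier results of these data known. 1 further gene of this kind is not reported here. The input and the IP of one number came from the same lysate by the study's methods, and 16 of 18 such pairs deviated together with a correlation over 0.1, so a fit with the lysate as a block was also made. Numbers did not pair strains (5 of 30 pairs over 0.1). The labels do not say whether replicates were separate cultures. The study states that worm growth, precipitation and library making were each done in triplicate per strain, and calls the replicates biological. The p-values measure the spread between these samples. The header in the table of wild-type replicate 2 bears the replicate number 1, and the sample's label was kept. Near-identical gene copies were not separated, and intervals for counting error were not used.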

Additional observations from a re-analysis of the deposited data

Results flagged for a closer look

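The following results differed between strains by a test of the difference itself, the interaction of genotype with IP against input in edgeR over 12 libraries. Between *hrde-2* and wild-type, enrichment was higher in *hrde-2* for 86 arm genes (17.3% of those tested) and 128 centre genes (26.1%). The share over all features tested was 33.7%. Enrichment was lower for 283 arm genes (56.8%) and 203 centre genes (41.4%), against 36.1% of all features. Between *simr-1* and wild-type it was higher in *simr-1* for 16 arm genes (3.23%) and 26 centre genes (5.22%), against 9.37%. It was lower for 149 (30.0%) and 120 (24.1%), against 21.9%, and these directions turned with the scaling. Between *mut-2; hrde-2* and *mut-2* it was higher for 4 arm genes (1.20%) and 5 centre genes (1.25%), against 1.74%. It was lower for 95 (28.6%) and 88 (22.1%), against 21.4%, so the centre was close to all features. Between *simr-1 mut-2* and *mut-2*, whose *mut-2* alleles differ, it was lower for 52 arm genes (15.4%) and 31 centre genes (7.43%), against 10.7%. It was higher for 1 centre gene (0.240%), against 0.114%.

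Among the named genes, the log2 difference of enrichment between *hrde-2* and wild-type was 3.50 for T10B5.3, 3.33 for F44E7.4 and 3.31 for T22F3.2, all in the arms, and 3.63 for F53F4.11, 3.43 for R02D5.8 and 3.32 for F45F2.10 in the centre. It was -4.78 for Y73C8C.3, -4.56 for H24K24.2 and -4.52 for R02C2.1 in the arms, and -4.56 for F45D3.1, -4.56 for C50B8.4 and -4.31 for C18B10.6 in the centre. Between *simr-1* and wild-type it was 1.39 for T10B5.3, -2.49 for T19C9.10, 1.52 for C56A3.5 and -2.42 for F07B7.2. Between *mut-2; hrde-2* and *mut-2* it was -5.42 for C50B8.4 and -6.81 for Y26G10.5.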

How the results depend on the processing

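Of 404 counts of called genes recomputed under the alternatives other than leaving out a replicate number, 353 stayed within 1.5 times the value reported and 51 did not. These alternatives include the fits with libraries of one suffix only, which hold fewer replicates. Of 52 counts each, 7 moved by more than 1.5 times without replicate 1, 8 without replicate 2 and 13 without replicate 3. No direction of a named gene changed, and 209 of 218 recomputed values of named genes kept their call, not counting fits with one replicate number left out, in which 2 more lost it. The causes of the changes below were not tested. Genes under 10 counts in 3 libraries were beyond the reach of the tests. An alternative without genes of near-identical protein was not run. The paired fits, with the input and the IP of one lysate as a block, and those of inputs with the replicate number as a block, moved 1 count by over 1.5 times, that of arm genes with higher enrichment in *simr-1 mut-2*, from 0 to 1. Smaller moves included the genes with lower enrichment in *simr-1* against wild-type, from 149 to 180 in the arms and from 120 to 158 in the centre, those higher in the wild-type IP, from 215 to 231 and from 121 to 139, and the arm genes lower in the *simr-1* inputs, from 108 to 88. The alternative with one suffix only was chosen after seeing the data. Shares called below are of all genes of the region.

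With DESeq2, the share called was 3.26% higher and 8.09% lower in the arms, and 5.74% higher and 5.65% lower in the centre for enrichment in *simr-1* against wild-type, 0.0987% higher in the arms, and 0.185% higher in the centre for enrichment in the *simr-1 mut-2* strain against *mut-2*, and 1.18% higher in the arms for *simr-1* inputs. With library size alone, the share called was 13.4% higher in the arms, and 6.30% higher in the centre for IP against input in wild-type, 10.3% higher in the arms, and 4.54% higher in the centre for IP against input in *simr-1*, 1.02% higher in the centre for IP against input in the *simr-1 mut-2* strain, 5.92% higher and 1.88% lower in the arms, and 10.2% higher and 1.85% lower in the centre for enrichment in *simr-1* against wild-type, 0.197% higher in the arms, and 0.278% higher in the centre for enrichment in the *mut-2; hrde-2* strain against *mut-2*, 0.0987% higher in the arms for enrichment in the *simr-1 mut-2* strain against *mut-2*, and 4.44% higher in the arms, and 8.24% higher in the centre for *mut-2* inputs. Without the filter on low counts, the share called was 10.5% lower in the arms, and 14.1% lower in the centre for IP against input in *simr-1*, 12.1% lower in the arms, and 16.6% lower in the centre for IP against input in *mut-2*, 2.17% higher and 14% lower in the arms, and 1.48% higher and 19.7% lower in the centre for IP against input in the *mut-2; hrde-2* strain, 4.05% higher and 11.8% lower in the arms, and 1.11% higher and 14.7% lower in the centre for IP against input in the *simr-1 mut-2* strain, 3.65% higher and 7.40% lower in the arms, and 6.48% higher and 4.63% lower in the centre for enrichment in *simr-1* against wild-type, 0.741% higher in the centre for enrichment in the *mut-2; hrde-2* strain against *mut-2*, 0.691% higher in the arms, and 0.278% higher in the centre for enrichment in the *simr-1 mut-2* strain against *mut-2*, 1.18% higher in the arms for *simr-1* inputs, and 3.65% higher in the arms, and 6.30% higher in the centre for *mut-2* inputs. With the lysate as a replicate block, the share called was 0.0987% higher in the arms for enrichment in the *simr-1 mut-2* strain against *mut-2*. With the name suffix as a term, the share called was 1.09% higher in the arms for *mut-2* inputs. With only the libraries of one suffix, the share called was 0.691% higher and 11.7% lower in the arms, and 2.59% higher and 8.24% lower in the centre for *mut-2* inputs. With boundaries at 5 and 17 Mb, the arms over centre ratio was 1.46 in inputs of wild-type, 1.23 in IPs of wild-type, 1.99 in inputs of *hrde-2*, 0.554 in IPs of *hrde-2*, 1.53 in inputs of *simr-1*, 1.13 in IPs of *simr-1*, 0.577 in inputs of *mut-2*, 1.05 in IPs of *mut-2*, 0.583 in inputs of the *mut-2; hrde-2* strain, 0.425 in IPs of the *mut-2; hrde-2* strain, 0.446 in inputs of the *simr-1 mut-2* strain, and 0.522 in IPs of the *simr-1 mut-2* strain. The IP over input ratio was 0.301 in *hrde-2*, 2.46 in *mut-2*, and 0.893 in the *mut-2; hrde-2* strain in the arms, and 1.08 in *hrde-2*, and 1.35 in *mut-2* in the centre. The arms minus centre difference of the median log2 ratio was 0.0809 in wild-type, -0.0945 in *hrde-2*, and 0 in the *mut-2; hrde-2* strain. With boundaries at 7 and 15 Mb, the share called was 0.0838% higher in the arms, and 0% higher in the centre for enrichment in the *simr-1 mut-2* strain against *mut-2*. The arms over centre ratio was 3.32 in inputs of wild-type, 2.90 in IPs of wild-type, 4.38 in inputs of *hrde-2*, 1.21 in IPs of *hrde-2*, 3.4 in inputs of *simr-1*, 2.37 in IPs of *simr-1*, 1.09 in inputs of *mut-2*, 1.79 in IPs of *mut-2*, 1.08 in inputs of the *mut-2; hrde-2* strain, 0.912 in IPs of the *mut-2; hrde-2* strain, 0.924 in inputs of the *simr-1 mut-2* strain, and 1.06 in IPs of the *simr-1 mut-2* strain. The IP over input ratio was 2.17 in *mut-2* in the arms, and 1.37 in *hrde-2* in the centre. The arms minus centre difference of the median log2 ratio was 0.0168 in wild-type. Without genes of overlapping exons, the arms over centre ratio was 2.82 in inputs of wild-type, 2.78 in IPs of wild-type, 3.71 in inputs of *hrde-2*, 1.21 in IPs of *hrde-2*, 2.88 in inputs of *simr-1*, 2.47 in IPs of *simr-1*, 1.11 in inputs of *mut-2*, 2.04 in IPs of *mut-2*, 1.11 in inputs of the *mut-2; hrde-2* strain, 0.897 in IPs of the *mut-2; hrde-2* strain, 0.894 in inputs of the *simr-1 mut-2* strain, and 1.10 in IPs of the *simr-1 mut-2* strain. The IP over input ratio was 1.30 in wild-type, 0.361 in *hrde-2*, and 2.46 in *mut-2* in the arms, and 1.34 in *mut-2* in the centre. The arms minus centre difference of the median log2 ratio was 0.0688 in wild-type, -0.00992 in *hrde-2*, and 0 in the *mut-2; hrde-2* strain. Without the 3 genes of highest level in each region, the arms over centre ratio was 1.94 in inputs of wild-type, 1.86 in inputs of *hrde-2*, 0.871 in IPs of *hrde-2*, 1.90 in inputs of *simr-1*, 1.64 in IPs of *simr-1*, 0.753 in inputs of *mut-2*, 0.985 in IPs of *mut-2*, 0.750 in inputs of the *mut-2; hrde-2* strain, 0.741 in IPs of the *mut-2; hrde-2* strain, 0.695 in inputs of the *simr-1 mut-2* strain, and 0.733 in IPs of the *simr-1 mut-2* strain. The IP over input ratio was 1.30 in wild-type, 0.563 in *hrde-2*, 1.58 in *mut-2*, and 1.18 in the *mut-2; hrde-2* strain in the arms, and 1.20 in *hrde-2*, and 1.21 in *mut-2* in the centre. With structural RNAs out of the totals, the arms over centre ratio was 0.747 in IPs of the *mut-2; hrde-2* strain. The IP over input ratio was 0.965 in wild-type, 0.336 in *hrde-2*, 0.719 in *simr-1*, 1.49 in *mut-2*, 0.791 in the *mut-2; hrde-2* strain, and 1.11 in the *simr-1 mut-2* strain in the arms, and 1.07 in wild-type, 1.00 in *hrde-2*, 0.940 in *simr-1*, 0.855 in *mut-2*, 0.934 in the *mut-2; hrde-2* strain, and 0.923 in the *simr-1 mut-2* strain in the centre. With 0.1 RPM added, the arms minus centre difference of the median log2 ratio was 0.115 in wild-type, and 0.00208 in *mut-2*. With 5 RPM added, the arms minus centre difference of the median log2 ratio was 0.0138 in wild-type. Among genes of at least 1 RPM, the arms minus centre difference of the median log2 ratio was 0.718 in wild-type, -0.440 in *hrde-2*, 0.212 in *simr-1*, 0.154 in *mut-2*, 0.0898 in the *mut-2; hrde-2* strain, and 0.103 in the *simr-1 mut-2* strain. With one replicate number left out, the share of all genes called ranged over 0.987% to 1.97% higher in the arms, and 0.278% to 0.926% higher in the centre for IP against input in the *simr-1 mut-2* strain, 6.12% to 13.8% lower in the arms, and 4.63% to 10.0% lower in the centre for enrichment in *simr-1* against wild-type, and 0.197% to 0.197% higher in the arms, and 0.278% to 0.370% higher in the centre for enrichment in the *mut-2; hrde-2* strain against *mut-2*. It ranged over 0% to 0.395% higher in the arms, 2.67% to 3.36% lower in the arms, 0% to 0.0926% higher in the centre, and 1.48% to 2.22% lower in the centre for enrichment in the *simr-1 mut-2* strain against *mut-2*, 1.48% to 2.76% higher in the arms, 4.84% to 7.70% lower in the arms, 0.926% to 1.76% higher in the centre, and 2.31% to 3.43% lower in the centre for *hrde-2* inputs, 0.494% to 1.28% higher in the arms, 5.92% to 11.7% lower in the arms, 0.278% to 0.741% higher in the centre, and 3.61% to 7.31% lower in the centre for *simr-1* inputs, and 0.888% to 2.17% higher in the arms for *mut-2* inputs. With the name suffix as a term, the log2 fold change in the *mut-2* inputs fell under the threshold for Y59A8B.12 (0.83), F13A7.14 (0.66), F53E10.6 (0.70), and C56A3.6 (0.77).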
